A study of Mus musculus with 2 samples.

Results

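Among 7430 cells from the mouse subventricular zone, 506 carried high combined levels of Mxd4, Stmn4, Adamts9, Tcp11l2, Lnx1, Fbxo32 and Pak3 together with little Mki67 and little Apoe. There were 273 such cells among 3766 in the library from young mice and 233 among 3664 in the library from aged mice. Each cell is a droplet barcode with at least 5000 unique molecular identifiers (UMIs, each standing for 1 captured transcript) of which at most 20% came from mitochondrially encoded genes. A score was formed as the share of a cell's UMIs from the 7 genes, and the 892 cells in the top 12% over both libraries were taken, from 354 CPM (UMIs per 1000000 UMIs) upward. Of these, 180 were set aside for more than 1 Mki67 UMI and 223 for Apoe at 500 CPM or more, of which 17 failed both limits. The 7 score genes, Mki67 and Apoe therefore chose the cells, and their levels in them are given as a description only. The working name for the group was cycle-exit progenitors, but a transcript table does not record whether a cell left the cycle, and the name Mxd4/Stmn4-high, also used for it, goes against most of its cells, in which no Stmn4 UMI was found. They are called Mxd4-high cells here, after the gene that supplied most of the score. The name is a label only, since Mxd4 supplied most of the score in the other cells too.

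The donors were C57BL/6 mice, 2 months old for the young library and between 15 and 18 months old for the aged library. Subventricular zone tissue of 5 mice was pooled and dissociated, and the cells were kept in proliferation medium before droplet capture (10x Genomics 3' chemistry). No gene was altered and no agent was given in either group, so far as the labels say. With 1 library per age no spread between mice could be measured, no test was possible and age cannot be told apart from library. Every interval below is a 95% exact interval that covers counting error only. A value in CPM is the sum of a gene's UMIs over the cells of a group per 1000000 UMIs of those cells, and values are given for the young library first and the aged library second. Of 4 barcode sequences that occurred in both libraries, 0 belonged to the 506 cells.

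The subventricular zone lines the lateral ventricles and keeps neural stem cells that divide to give transit-amplifying progenitors and, in turn, neuroblasts or oligodendrocyte precursors. Leaving the division cycle involves loss of MYC and E2F activity. MXD4 is a partner of MAX that occupies the E-box sites used by MYC and represses them. STMN4 is a stathmin, a protein of neural cells that binds tubulin dimers. FBXO32 (atrogin-1) and LNX1 are parts of, or act as, ubiquitin ligases, FBXO32 being a known target of FoxO factors and LNX1 a ligase for the NOTCH regulator NUMB. PAK3 is a neuronal kinase downstream of Rac and Cdc42, and ADAMTS9 is a secreted protease that cuts proteoglycans.

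The Mxd4-high cells made up 7.25% of the young cells (95% Clopper-Pearson interval 6.44 to 8.12%) and 6.36% of the aged cells (5.59 to 7.20%), and the intervals overlap. Within the cells that met the same Mki67 and Apoe limits they made up 26.9% (24.2 to 29.7%) and 21.5% (19.1 to 24.1%). There the intervals do not overlap, though they hold no spread between mice. The group was shallower than the rest, with a median of 19005 and 20227 UMIs against 24621 and 25965 in all other cells and 21849 and 22263 in other cells within the limits. Its share was 15.9% and 17.4% among cells of 5000 to 15000 UMIs, 10.9% and 9.37% at 15000 to 25000, and 1.92% and 2.44% at 25000 or more. Mitochondrial UMIs took 10.5 and 10.5% against 9.70 and 9.83% in all others, and the nuclear RNA Malat1 stood at 26774 and 28173 CPM against 18078 and 20122 CPM in all others and 16882 and 19261 CPM in those within the limits. When every cell was first thinned to 5000 UMIs the rule chose 548 cells, of which 275 were among the 506, so that membership of a single cell depends on the UMIs drawn. Under a mitochondrial limit of 10% the rule chose 310 cells, of which 225 were among the 506 (44.47% of them), and the shares were 6.72% (young) and 6.82% (aged), so the order of the ages turned. A minimum of 10000 UMIs kept 492 of the 506 and shares of 7.22% and 6.44%.

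Mxd4 supplied most of the score, at 303 CPM (young) and 275 CPM (aged) against 82.6 and 80.7 in all other cells and 107 and 102 in other cells within the limits. Its UMIs were 56.2% and 52.2% of all score UMIs, and 99.3% and 98.7% of the Mxd4-high cells held at least 1. Stmn4 stood at 33.4 CPM (young) and 53 CPM (aged) against 5.31 and 6.48, but only 28.2% and 39.1% of the cells had a Stmn4 UMI. Adamts9 reached 63.1 and 56.4 CPM against 19.1 and 17.9, and Pak3 49.6 and 42.5 against 11.04 and 10.8. Lnx1 was at 49.6 and 46.5 CPM against 11.1 and 11.7. Fbxo32 was at 19.8 and 32.9 CPM against 4.33 and 4.53, and Tcp11l2 at 20.8 and 20.5 against 4.87 and 4.47. The typical cell passed on a few genes: the median was 3 of the 7 detected and 10 score UMIs, against 2 genes and 3 UMIs in the other cells, while 41 young and 48 aged cells had 5 or more of the genes. In the GRCm38 annotation Mxd4 lies at chr5:34173883-34187720, Stmn4 at chr14:66344296-66361680, Adamts9 at chr6:92772699-92943492, Tcp11l2 at chr10:84576626-84614359, Lnx1 at chr5:74592447-74702912, Fbxo32 at chr15:58175879-58214932 and Pak3 at chrX:143518591-143797796, all protein-coding genes.

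To describe how far the 7 genes went together, each was left out in turn and the cells were picked again on the other 6 under the same limits. The 7 were listed together with results of these data known, and each new pick shared from 62.65% to 96.64% of the 506 cells, so the ratios below describe the score and support nothing beyond it. The gene left out was at least 2-fold higher in the picked cells in both libraries for 6 of the 7 genes. Fbxo32 and Stmn4 were farthest apart, Fbxo32 at 4.07-fold (95% interval 3.23 to 5.10) in the young and 5.25-fold (4.27 to 6.42) in the aged library, and Stmn4 at 3.70-fold (95% interval 3.004 to 4.54) in the young and 5.49-fold (4.65 to 6.46) in the aged library. Tcp11l2 followed at 3.36-fold (95% interval 2.64 to 4.23) in the young and 3.51-fold (2.72 to 4.47) in the aged library. Mxd4, the exception, was 2.32-fold (95% interval 2.16 to 2.49) in the young and 1.85-fold (1.71 to 2.000) in the aged library. For most genes the ratio was smaller against other cells within the same Mki67 and Apoe limits. There the ratios were 1.46 and 1.23 for Mxd4, 1.78 and 1.51 for Adamts9 and 2.27 and 1.35 for Lnx1. They were still 3.34 and 4.52 for Stmn4 and 4.07 and 4.14 for Fbxo32. Of the 7, Mxd4 was thus the least well picked out by the rest, and the sparsely detected Stmn4 and Fbxo32 the best.

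**Figure D1:**
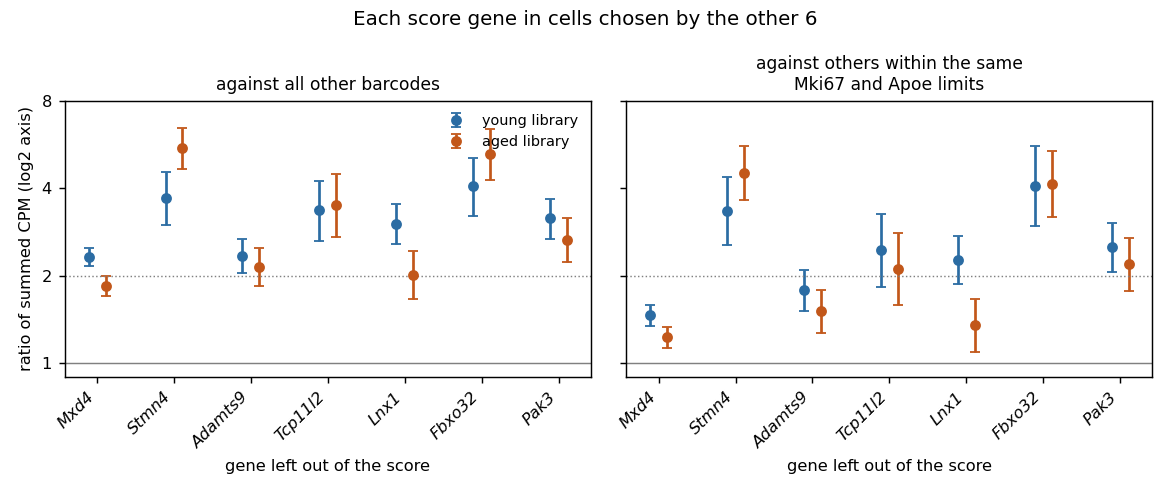
Ratio of summed CPM (log2 axis) of each score gene in the cells picked by the other 6 genes, against all other cells (left) and others within the same Mki67 and Apoe limits (right), for the young (blue) and aged (orange) library; bars are 95% exact intervals for counting error. Every point lies above 1; Mxd4 in the aged library is the lowest on each side, at 1.85 and 1.23.

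The promoters of some genes at the centre of these differences follow as RefSeq gives them for GRCm38.p6, 250 bases before the start site, 5′ to 3′ on the gene's strand. Mxd4 and Lnx1 are shown as score genes with a MYC/MAX/MXD E-box, Mcm5 as a replication gene that was lower in the group and carries E2F motifs, and Prc1 as a mitotic gene with a CHR element, the site of the MuvB complexes that silence such genes outside division. Capitals mark the motif letters found by search on both strands.
Mxd4 (chr5:34187711-34187960, minus strand): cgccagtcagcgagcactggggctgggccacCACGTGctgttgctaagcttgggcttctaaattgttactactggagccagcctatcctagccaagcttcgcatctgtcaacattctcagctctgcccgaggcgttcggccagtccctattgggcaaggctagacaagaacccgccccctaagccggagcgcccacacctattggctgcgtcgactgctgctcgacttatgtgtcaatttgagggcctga
Lnx1 (chr5:74702904-74703153, minus strand): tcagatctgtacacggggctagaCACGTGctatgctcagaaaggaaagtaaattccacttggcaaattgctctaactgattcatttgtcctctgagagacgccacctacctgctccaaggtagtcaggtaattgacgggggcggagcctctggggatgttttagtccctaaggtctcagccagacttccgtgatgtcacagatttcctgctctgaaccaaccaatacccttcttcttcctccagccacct
Mcm5 (chr8:75109259-75109508, plus strand): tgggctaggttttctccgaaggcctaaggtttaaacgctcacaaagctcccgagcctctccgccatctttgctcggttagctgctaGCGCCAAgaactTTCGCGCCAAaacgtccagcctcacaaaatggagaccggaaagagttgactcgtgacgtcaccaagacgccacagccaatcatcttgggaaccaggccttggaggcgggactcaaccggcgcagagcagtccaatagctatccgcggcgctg
Prc1 (chr7:80294226-80294475, plus strand): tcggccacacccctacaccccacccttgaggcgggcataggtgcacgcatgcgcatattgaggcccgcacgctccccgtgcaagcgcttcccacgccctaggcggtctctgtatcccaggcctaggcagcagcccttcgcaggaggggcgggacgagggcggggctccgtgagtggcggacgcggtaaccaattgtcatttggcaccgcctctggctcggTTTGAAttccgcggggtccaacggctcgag
The E-box CACGTG begins 219 bases before the Mxd4 start site and 227 before that of Lnx1. Mcm5 has TTCGCGC once and TTGGCGC on the other strand at 2 places, 1 of which overlaps TTCGCGC, and Prc1 has TTTGAA 30 bases before the start. A second RefSeq start for Prc1 has its window at chr7:80294201-80294450, which stops within that motif and holds 0 matches. Over windows of 250 bases before to 50 after each start site, CACGTG was in 3 of 7 promoters of the 5 score genes with an entry, in 7.15% of all 32851 promoters and in 10.5% of the 8902 promoters of genes abundant enough to compare. TTTGAA was in 18 of 26 promoters of the G2/M genes listed for this work, in 17.9% of all and in 11.3% of those of compared genes. For the G1/S genes, TTCCCGC was in 9 of 24 promoters against 4.60% of all and 8.73% of those of compared genes, and TTGGCGC in 7 of 24 against 2.45% and 4.75%. The FoxO motif TGTTTAC was in 2 of 18 promoters of the 15 genes named below as highest against cells within the limits, in 3.65% of all and in 2.54% of those of compared genes. It was in 0 of 12 promoters of the 15 lowest there. Against all other cells it was in 2 of 22 promoters of the 15 highest and in 2 of 13 of the 15 lowest, so it did not single out the higher genes. A match is a run of letters only, and no binding was measured.

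Against all other cells, 8768 genes could be compared. In both libraries, 57 of them (0.65%) were higher in the Mxd4-high cells by 2-fold or more, and 330 were lower by as much (3.76%). The lower side largely restates the limit on Mki67. All 30 G2/M genes were lower in both libraries, where 41.2% of all genes were, and 28 of them were lower by 2-fold or more, with median log2 ratios of -3.83 and -3.77. Hmmr, a spindle-associated hyaluronan receptor, was at 3.43 CPM (young) and 2.51 CPM (aged) against 171 and 179.7, and Cenpf, a kinetochore protein, at 18.7 and 19.5 CPM against 447 and 492. Aspm, Prc1, Sgo2a, Cenpe, Kif11, Bub1b, Kif4, Plk1, Esco2, Tpx2, Knl1, Hist1h1b and Aurkb completed the 15 lowest named genes. The 15 highest were Lhfpl3, Sesn3, Ube2h, Dlgap1, Btg2, Sox4, Rcan2, Cntn1, Kdm5b, Enc1, Wdr6, Pcsk1n, Pnrc1, Pdcd4 and Crmp1. Since Mki67 and Apoe were limited, the rest of the account compares the group with the 1594 other cells (743 young, 851 aged) that met the same limits but scored lower.

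Within those limits 43 of 8620 genes were at least 2-fold higher in both libraries (0.499%, the 7 score genes included) and 19 were at least 2-fold lower (0.22%). The balance of higher and lower genes turned when cells were thinned to 5000 UMIs (18 higher and 38 lower) and when the score left out Adamts9 (40 and 43) or Mxd4 (59 and 62). Under the mitochondrial limit of 10% it was 26 and 21, and with at least 10000 UMIs 43 and 21. Sesn3, a sestrin that restrains mTORC1 and a FoxO target, stood at 142 CPM (young) and 133 CPM (aged) against 58.2 and 58.7, a ratio of 2.44 (95% interval 2.21 to 2.69) in the young and 2.27 (95% interval 2.06 to 2.50) in the aged library. Cntn1, an axonal adhesion protein, was at 137 CPM (young) and 98.3 CPM (aged) against 49.5 and 43.7. Lhfpl3, known from oligodendrocyte precursors, was at 117 CPM (young) and 146 CPM (aged) against 45.5 and 65.97. Btg2, an anti-proliferative gene of neurogenic divisions, was at 74.2 CPM (young) and 71.6 CPM (aged) against 31.3 and 34.2, a ratio of 2.37 (95% interval 2.07 to 2.71) in the young and 2.09 (95% interval 1.83 to 2.39) in the aged library. These 4 genes were more than 2-fold apart in each library. Sox4, a transcription factor of differentiating neural progenitors, was among the most abundant at 864 CPM (young) and 979 CPM (aged) against 463 and 529.9, a ratio of 1.86 (95% interval 1.80 to 1.93) in the young and 1.85 (95% interval 1.79 to 1.91) in the aged library. Trp53inp1, a p53-induced gene, was at 133 and 92.4 CPM against 65.8 and 47.4, and Gadd45g, an inhibitor of CDK1 activity, at 86.8 and 120.5 against 51.2 and 44.4. Pcsk1n, Ube2h, Dlgap1, Rcan2, Lrp1, B3gat2, Enc1 and Pnrc1 were the other genes among the 15 highest.

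On the low side Slc4a4, a sodium bicarbonate cotransporter of astrocytes and progenitors, was lowest at 56.6 CPM (young) and 40.4 CPM (aged) against 129 and 94.9, a ratio of 0.439 (95% interval 0.388 to 0.496) in the young and 0.426 (95% interval 0.365 to 0.494) in the aged library. Mcm3, a subunit of the replicative helicase, was at 48.6 CPM (young) and 43.2 CPM (aged) against 109.6 and 95.8. Mcm5, another subunit, was at 32.03 and 27.03 CPM against 63.4 and 53.04, and Rrm2, the regulated subunit of ribonucleotide reductase, at 34.3 and 31.2 against 74.6 and 60.9. Igfbp4, which binds insulin-like growth factors, was at 113 and 78.6 CPM against 234 and 151, and the interferon-inducible membrane gene Ifitm3 at 107 and 72.5 against 222 and 143. Cenpa, Pclaf, Pbk, Tmem158, Pon2, Ctsc, Apln, Gng11 and Tipin made up the rest of the 15 lowest. The log2 ratios of the libraries correlated across the 8620 genes at Pearson r = 0.79. That is a description over genes, which are not independent, and both libraries share the score that chose the cells.

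**Figure D2:**
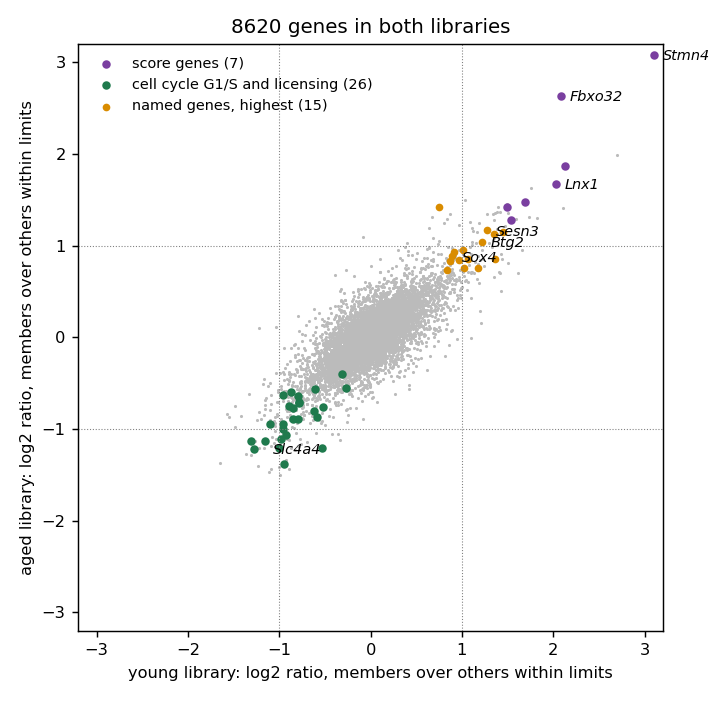
Log2 ratio of summed CPM + 1 in Mxd4-high cells over other cells within the same Mki67 and Apoe limits, young library (x axis) against aged library (y axis), for 8620 genes (grey); dotted lines mark 2-fold. The 7 score genes (purple) lie at the top right by choice of the cells, the 15 highest named genes (yellow) lie near or past the 2-fold lines, and all 26 G1/S genes (green) lie below 0 in both libraries.

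Genes of the G1/S transition and DNA replication were lower throughout than in the others within the limits, although the rule used only Mki67. Mki67 itself was not level within the limits. No Mki67 UMI was found in 75.5% and 76.8% of the Mxd4-high cells, against 65.9% and 68.4% of the others within the limits. How far this bears on the replication genes was not tested. All 26 G1/S and licensing genes were lower in both libraries, 4 of them at least 2-fold, with median log2 ratios of -0.86 and -0.88 against 0.00 and 0.01 over all 8620 genes. Their summed level was 741 and 609 CPM in the group and 1308 and 1098 CPM in the others. Ccne2, which activates CDK2 at the G1/S boundary, was at 6.48 and 5.45 CPM against 17.5 and 13.1, and E2f1 at 7.82 and 6.08 against 16.4 and 14.2. The 26 genes of DNA synthesis were likewise lower in both libraries, with medians of -0.71 and -0.69, 2 of them at least 2-fold. Of 17 G2/M genes abundant enough to compare, 15 were lower in both libraries, with medians of -0.83 and -0.52, and Top2a stood at 32.03 and 35.2 CPM against 59.02 and 58.1. Over all genes 38.2% were lower in both libraries by any amount, which is the share to read those counts against.

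The D cyclins, which bring CDK4 and CDK6 to the RB protein in G1 and follow growth factor signals, were not lower. Ccnd1 was at 2586 CPM (young) and 2363 CPM (aged) against 1961 and 1938, a ratio of 1.32 (95% interval 1.29 to 1.35) in the young and 1.22 (95% interval 1.19 to 1.25) in the aged library. Ccnd2 was at 2161 CPM (young) and 1683 CPM (aged) against 1667 and 1258, and Ccnd3 at 47.1 and 52.6 CPM against 40.1 and 49.1. Cdk4 differed little, at 488 and 493 CPM against 446 and 440.4, and Cdk6 was at 37.9 and 34.4 against 46.1 and 35.2. The D cyclins thus stood above the comparison cells in each library, Ccnd3 by the least, while Ccne2 and the replication genes stood below. Of the 17 genes compared on the cyclin D, CDK4/6 and RB list, 7 were higher and 10 lower in both libraries. Over all genes these shares were 39.2% and 38.2%. The list medians were -0.12 and -0.04, so the list did not follow the cyclins.

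Of 17 CDK inhibitors and arrest genes compared, 12 were higher in both libraries, against 39.2% of all genes, with medians of 0.32 and 0.43. Only Ccng2, Gadd45b and Btg2 were at least 2-fold higher in both. Cdkn1a, the CDK inhibitor induced by p53, was at 482 CPM (young) and 507 CPM (aged) against 329 and 325, a ratio of 1.46 (95% interval 1.40 to 1.54) in the young and 1.56 (95% interval 1.49 to 1.63) in the aged library. The CDK inhibitor Cdkn1b, typical of cells that leave the cycle for differentiation, differed little, at 54.3 CPM (young) and 66.8 CPM (aged) against 54.4 and 63.1. Cdkn1c was low, at 3.81 and 11.1 CPM against 4.11 and 4.65, with a difference in the aged library alone. Ccng2, an unconventional cyclin of arrested cells and a FoxO target, was at 10.5 and 9.22 CPM against 3.06 and 2.74. Of 17 p53 targets, 15 were higher in both libraries with medians of 0.34 and 0.34, Trp53inp1 and Btg2 among them. Bbc3 (PUMA), a p53-induced promoter of cell death, was at 34.9 and 29.1 CPM against 14.9 and 15.3, while Trp53 itself had log2 ratios of -0.12 and -0.15.

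FoxO factors are active when insulin and growth factor signalling is low, and Fbxo32 is among their targets. Of 17 other genes of the pathway 13 were higher in both libraries, against 39.2% of all genes, with medians of 0.36 and 0.32. Sesn3 and Pik3ip1 were at least 2-fold higher. Pik3ip1, an inhibitor of PI3-kinase, was at 24.98 CPM (young) and 32.1 CPM (aged) against 10.97 and 13.8. Foxo1 and Foxo3 themselves were at 14.9 and 13.2 and at 21.2 and 21.8 CPM against 11.3 and 12.4 and 16.1 and 16.4. Klhl24 was at 31.5 and 33.1 CPM against 19.4 and 19.96, and Txnip, a FoxO target that blocks glucose uptake, was low at 1.72 and 1.47 against 0.184 and 0.931. Trim63, the other classical atrophy ligase, was at 0.191 and 0 CPM. Irs2 and Sod2, also FoxO targets, had log2 ratios of -0.17 and 0.08 and of -0.11 and -0.13, so the list did not move as one.

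Immediate early genes, which respond within minutes to stimuli, cell dissociation included, were higher in 11 of 14 in both libraries (39.2% of all genes were), with medians of 0.61 and 0.45. Fos was at 99.7 CPM (young) and 30.8 CPM (aged) against 43.6 and 17.2, and Egr1 at 371 and 191 CPM against 248 and 131. Btg2 is counted in this list too, as it is among the arrest, p53 and neurogenic genes. Of 22 autophagy and lysosome genes 17 were higher, by small amounts (medians 0.18 and 0.12). Ribosome biogenesis, a main output of MYC, was lower in 26 of 28 genes, with medians of -0.53 and -0.33 and 0 at 2-fold. Npm1, a nucleolar chaperone, was at 1111 CPM (young) and 1058 CPM (aged) against 1406 and 1271, and Nop56, of the box C/D particle, at 109 and 117 CPM against 161 and 167. Proteasome subunits were lower in 25 of 27 (medians -0.12 and -0.12) and nuclear-encoded oxidative phosphorylation subunits in 33 of 43 (medians -0.08 and -0.06). Of all genes 38.2% were lower in both libraries. The proteasome and oxidative phosphorylation differences are regular in sign and small in size.

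Signalling lists stayed near the level of all genes, of which 39.2% were higher and 38.2% lower in both libraries, with single members apart. Of 14 NOTCH genes compared, 6 were higher and 6 lower in both libraries, and 1 of the 6 higher was Lnx1, which the score fixed. The ligands Dll1 and Dll3 were at 21.7 and 18.02 and at 20.8 and 26.8 CPM against 12.1 and 11.9 and 11.2 and 10.3, while Hes1, a target, was at 49.4 and 36.03 against 61.1 and 45.96, and Numb, the substrate of LNX1, at 4.77 and 8.59 against 4.96 and 5.48. In the BMP list (6 higher and 3 lower of 13) the inhibitors of differentiation went apart: Id2 was at 150.2 CPM (young) and 128 CPM (aged) against 80.2 and 88.1, and Id3 at 111 and 119.6 against 191 and 168. In the WNT list (2 higher and 3 lower of 8) Nkd1, a feedback inhibitor, was at 54.9 and 39.2 CPM against 20.96 and 24.5. EGFR, FGFR and MAPK feedback genes were higher in 8 and lower in 6 of 17, with Dusp6, an ERK phosphatase that reports ERK activity, at 100.3 and 67.2 CPM against 116 and 81.7, and Erbb4, a neuregulin receptor, at 13.5 and 15.5 against 3.62 and 7.50. Hedgehog genes were too few to summarise (3 higher and 2 lower of 5), and F-box and related ligase genes were balanced (6 higher and 6 lower of 18), Skp2, which directs the breakdown of p27, being at 14.5 and 15.1 CPM against 21.7 and 19.9. The integrated stress response, led by ATF4, was lower in 12 of 18 (medians -0.29 and -0.29), although Ddit4 and Sesn2, inhibitors of mTORC1, were at 27.6 and 28.7 and at 49.96 and 46.5 CPM against 12.3 and 17.1 and 29.4 and 32.9. Against all other cells 10 of 16 genes of that list were higher and 5 lower in both libraries, with medians of 0.07 and 0.24. Of all genes 41.7% were higher there. Glycolysis was lower in 9 of 15 and cholesterol synthesis in 13 of 22, the latter with medians of -0.38 and -0.06 that differed between the libraries.

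**Figure D3:**
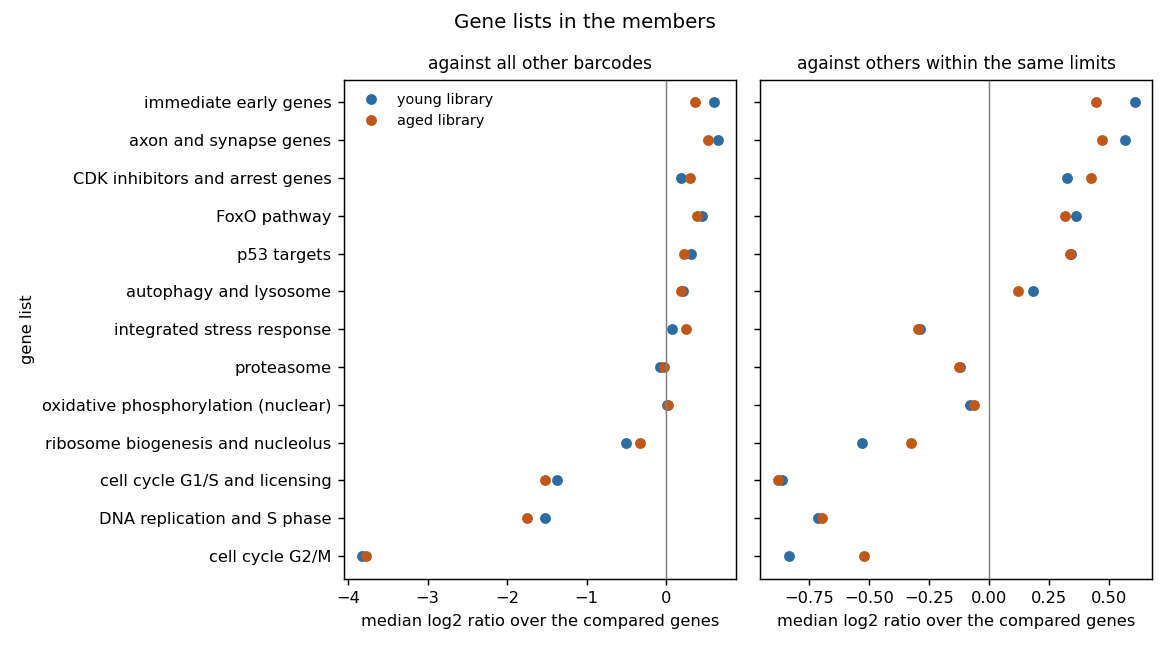
Median log2 ratio over the compared genes of each list in Mxd4-high cells, against all other cells (left) and against others within the same Mki67 and Apoe limits (right), with the young library in blue and the aged in orange. The G2/M median moves from -3.83 and -3.77 on the left to -0.83 and -0.52 on the right, while the axon, FoxO and p53 lists stay above 0 on both sides.

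Relatives of the score genes did not all go with them. In the MYC and MAX network Mxi1, another MAX-bound repressor, was at 28.8 CPM (young) and 31.2 CPM (aged) against 19.2 and 21.3, and Mxd1 at 7.82 and 7.96 CPM against 2.88 and 4.34. Mxd3, the family member tied to S phase, went the other way at 1.72 and 2.93 CPM against 4.54 and 4.08, and at 40.98 and 40.5 in all other cells. Myc was at 44.2 and 33.3 CPM against 39.1 and 34.7 and Max at 32.4 and 35.6 against 39.5 and 37.1, so that Myc transcripts differed little. Among stathmins, Stmn3 was at 248 CPM (young) and 248 CPM (aged) against 172 and 186 and Stmn1, the form of dividing cells, at 511 and 515 against 627 and 605. Mapt (tau) was at 209 and 182 CPM against 110.1 and 121, and Dclk1 at 417 and 362 against 301 and 286. Of 19 stathmin and microtubule genes 15 were higher in both libraries, 0 of them 2-fold, where 39.2% of all genes were higher. Stmn2, of growing axons, stayed near 0 at 0.191 and 0.210 CPM. Pak1 was at 55.9 and 46.7 CPM against 30.5 and 29.4, while Pak2, the ubiquitous form, was at 119.6 and 146 against 126 and 137. Adamts1 was at 22.3 and 28.5 CPM against 12.7 and 17.7, and Adamts5 at 12.01 and 9.85 against 5.64 and 4.60. Vcan, a proteoglycan that ADAMTS proteases cut, was at 75.1 and 53.6 CPM against 34.4 and 32.6, and Tnr, a tenascin of the oligodendrocyte lineage, at 28.8 and 17.2 against 7.78 and 4.86. Lnx2, the paralogue of Lnx1, was at 1.72 and 2.51 CPM, too low to compare.

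Neural differentiation genes were higher in part. The neuroblast genes Dcx, Dlx1 and Dlx2 and the oligodendrocyte precursor genes Pdgfra and Sox10 were low in level, though Dcx stood above the comparison cells. Of 10 proneural and neurogenic factors compared, 7 were higher in both libraries, with medians of 0.56 and 0.38. Over all genes 39.2% were higher and 38.2% lower in both libraries, the shares to read the counts of this paragraph against. Elavl3, a neuronal RNA-binding protein, was at 56.2 CPM (young) and 83.6 CPM (aged) against 25.4 and 50.7, and Myt1, a repressor of NOTCH targets, at 48.4 and 34.8 against 23.7 and 23.5. Neurog1, Neurog2, Dlx5, Dlx6, Sp8, St18 and Nhlh1, also on that list, had 0 UMIs. Of 18 axon and synapse genes compared, 14 were higher in both libraries, with medians of 0.57 and 0.47, but only Cntn1 was at least 2-fold higher in both. Gap43, of growth cones and glial progenitors, was at 709.9 CPM (young) and 624 CPM (aged) against 418 and 393. Dcx, the marker of neuroblasts, was at 7.05 CPM (young) and 6.08 CPM (aged) against 0.613 and 1.29. Dlx1 and Dlx2 were at 0.381 and 0.419 and at 0.953 and 2.51 CPM, so these neuroblast genes were low. The neuroblast list summed to 439 and 455 CPM against 427 and 404, most of it from Sox11 at 274 and 315 CPM and Cd24a at 92.1 and 77.5, with Dlx5, Dlx6os1 and Sp8 at 0. Of its 4 genes abundant enough to compare, 3 were higher in both libraries and 0 lower, with medians of 0.25 and 0.23. Olig1, an oligodendrocyte lineage factor, was at 1923 CPM (young) and 1206 CPM (aged) against 1293 and 941, and the precursor list summed to 2759.8 and 1937 CPM against 1929 and 1518. Pdgfra and Sox10, which are among the genes that define those precursors, were at 3.81 and 3.98 and at 1.53 and 0.838 CPM. Of 12 precursor genes only 5 were abundant enough to compare. Of the 5, 4 were higher in both libraries and 0 lower, with medians of 0.57 and 0.36. Cspg4, a proteoglycan of those precursors, was at 67.1 and 80.96 CPM in Mxd4-high cells with at least 2 Lnx1 UMIs. In those with 0 it was at 20.1 and 40.5 CPM. Of 12 activated stem cell or transit-amplifying genes, Mki67 among them, 9 were higher and 3 lower in both libraries. Their medians were 0.25 and 0.15, and 0 were 2-fold apart. Sox2, Nes and Egfr on that list differed by small amounts. Sox2 was at 244 and 257 CPM against 204 and 229, Nes at 707 and 699 against 687 and 666, and Egfr at 163 and 191 against 158 and 185. Vim (vimentin), an intermediate filament of progenitors, was at 4017 CPM (young) and 3068 CPM (aged) against 2813 and 2192, and Sox9, a glial progenitor factor, at 231 and 212 against 165 and 146. The cells are labelled as neural stem cells. Gfap, which marks quiescent stem cells and astrocytes, was at 0.763 and 0.629 CPM in the group and 0.952 and 0.741 in all other cells, so this marker was absent or nearly so from both. The whole list of 20 quiescent stem cell or astrocyte genes was not absent. It summed to 1939 and 2081 CPM against 1970 and 2241 in the others within the limits. Of 14 of its genes compared there, 6 were higher and 8 lower in both libraries, with medians of -0.08 and -0.15.

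Many genes that define other cell types were at or near 0, and most of what the lists summed to came from a few genes. Of 10 microglia genes 7 had 0 UMIs in the 506 cells (Cx3cr1, Csf1r, C1qa, C1qb, Tyrobp, Aif1 and Ptprc). Of 8 endothelial genes 4 had 0 UMIs and the sum was 1.91 and 1.26 CPM. Of 10 pericyte and fibroblast genes 7 had 0 UMIs and the sum was 0.763 and 0.210 CPM. Ependymal genes summed to 10.7 and 5.87 CPM against 10.2 and 10.2, with Ccdc153, Tmem212 and Pifo at 0. Mature neuron genes summed to 99.5 and 139 CPM against 102 and 171, with Slc17a7 and Slc32a1 at 0 and Thy1 at 46.7 and 68.7. Maturing oligodendrocyte genes summed to 396 and 308 CPM against 305 and 252, with the myelin genes Mog, Mag and Mobp at 0 and Cnp, Itpr2 and Sirt2 making up most of the sum. Of 16 genes on that list 6 were abundant enough to compare. Of the 6, 5 were higher in both libraries and 1 lower, where 39.2% of all genes were higher. Their medians were 0.48 and 0.38, and Bcas1 differed most among them.

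The limit on Mki67 left out 163 top-scoring cells that met the Apoe limit but had more than 1 Mki67 UMI (91 young, 72 aged), in which the same genes could be read. Against the 4189 other cells with more than 1 Mki67 UMI and Apoe within its limit, 43 of 8871 genes were at least 2-fold higher in both libraries (0.485%) and 40 were lower (0.451%). Score genes were higher there by choice of the cells. Of these, Stmn4 at 58.5 and 80.7 CPM, Pak3 at 61.7 and 60.3 and Adamts9 at 70.3 and 68.6 were above their levels in the Mxd4-high cells, and Mxd4 at 199 and 176, Fbxo32 and Tcp11l2 were below. All 15 genes named above as highest within the limits were also higher in these Mki67-bearing cells in both libraries, where 37.5% of all genes were, and 4 of the 15 were at least 2-fold higher. Sesn3 was at 106 CPM (young) and 95.3 CPM (aged) against 46.5 and 57.2, and Sox4 at 781 and 786 CPM against 389 and 476. Lhfpl3 was at 114 and 166 CPM against 45.99 and 66.2. The 15 lowest were lower there too in both libraries, with log2 ratios from -0.01 to -1.66 and 0 at 2-fold, where 34.3% of all genes were lower. Replication genes were lower in 26 of 26 there, with medians of -0.83 and -0.45, and ribosome biogenesis in 27 of 28 (medians -0.46 and -0.27). Ccnd1 was at 2499 and 2179 CPM against 1688 and 1668. The named genes therefore had the same direction around the score in cells that still carried Mki67 transcripts.

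The 477 low-Mki67 cells set apart by Apoe at 500 CPM or more and a lower score were the other neighbouring group. The Mxd4-high cells had 195 of 8799 genes at least 2-fold higher than these (2.22%) and 254 lower (2.89%), in both libraries. For the Apoe-low cells within the limits these counts were 43 and 19. Mxd4 was already at 174 CPM (young) and 151 CPM (aged) in the Apoe-high cells and Sesn3 at 107 and 89.8 CPM, so these genes were not low outside the group. Lhfpl3 at 14.5 and 21.1 CPM was far below the Mxd4-high cells. Stmn4 at 0.764 and 1.64 CPM and Lnx1 at 3.67 and 3.97 were too. These are score genes, and they were lower there by choice of the cells, which had to score lower. Slc4a4 stood at 399.6 and 389.6 CPM there, Ifitm3 at 530.4 and 452 and Ccnd2 at 2877 and 2428. Crmp1, Stmn1 and Olig1 in the Apoe-high cells were at 12.2 and 13.1, at 159.9 and 178 and at 1045 and 543 CPM, each below the Mxd4-high cells in both libraries. Replication genes went the other way from the comparison within the limits. Of 19 G1/S and licensing genes, 17 were higher in the Mxd4-high cells in both libraries, with medians of 0.59 and 0.56. Of 20 genes of DNA synthesis 16 were higher, and of 28 ribosome biogenesis genes 22. Over all genes 52.3% were higher.

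No step marked the threshold. The 100 members with the lowest scores (354 to 396 CPM) had Sesn3 at 92.2 CPM, Btg2 at 40.9, Sox4 at 594, Mcm3 at 47.2 and Ccnd1 at 2415. The 100 cells within the limits just below it (320 to 354 CPM) had 98.7, 55.3, 721, 47.9 and 2319.8 CPM, so that the cells just outside were not lower in Sesn3, Btg2 or Sox4 than those just inside. In the 100 members with the highest scores the values were 229, 145, 1511, 26.9 and 2741 CPM. Over 6 bands of score among the 2100 cells within the limits, Sesn3 went from 35.9 and 42.99 CPM in the lowest band to 166 and 160.1 in the highest. Sox4 went from 409 and 445 to 968 and 1174 CPM and Cdkn1a from 230.2 and 233 to 510.3 and 568. Ccnd1 went from 1772 and 1701 to 2639 and 2403 CPM over the same bands. The summed G1/S genes went down from 1794 and 1289.9 to 643 and 526 CPM, and Slc4a4 from 136 and 104 to 39.8 and 15.1, most of it between the highest bands. The change was not even over the bands. In the band next to the highest, Sesn3 was at 94.0 and 83.0 CPM. Btg2 went from 44.7 and 43.7 CPM in that band to 84.6 and 94.0 in the highest, which held members only. The levels thus moved most at the top of the score, while cells just inside the threshold did not stand apart from those just outside.

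**Figure D4:**
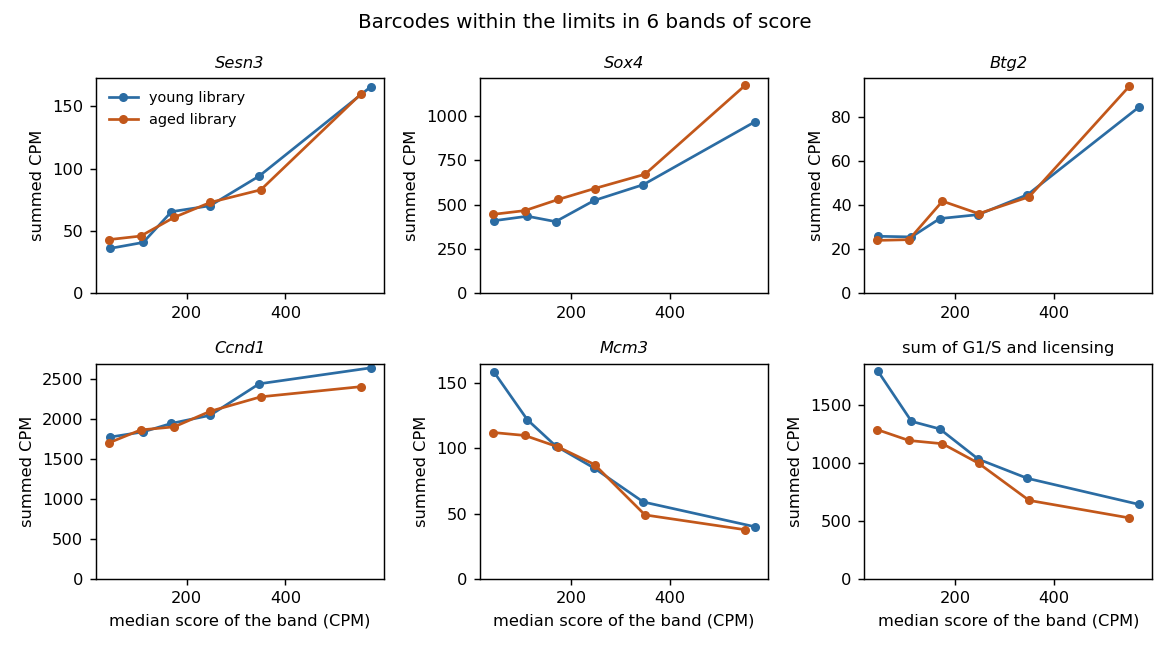
Summed CPM of 5 genes and of the summed G1/S and licensing genes (y axes, from 0) against the median score of 6 bands of the 2100 cells within the limits (x axis, CPM), young library in blue and aged in orange. Sesn3, Sox4, Btg2 and Ccnd1 are higher in the highest band than in the lowest, while Mcm3 and the G1/S sum go down across the bands in both libraries.

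The group was not uniform. Cells with at least 2 UMIs of a score gene were set against cells with 0, first among the 506 and then, since genes in a sum that must pass a threshold are pushed apart among the cells that pass, among all 2100 cells within the limits whatever their score. Among the 506, the Fbxo32 split (23 and 29 cells with it, 218 and 176 without) had 119 of 9035 genes at least 2-fold higher (1.32%) and 96 lower (1.06%) in both libraries, and the Lnx1 split (65 and 56 with, 137 and 129 without) had 51 of 8938 higher (0.571%) and 111 lower (1.24%). The Pak3 split had 5 and 7 of 8916 (0.0561% and 0.0785%). The genes below were picked after their values were seen.

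Fbxo32 went with Stmn4 and away from Lnx1. Among all cells within the limits, Stmn4 with and without Fbxo32 (32 and 44 cells with, 909 and 958 without) was at 53.98 against 7.74 CPM in the young and 88.6 against 10.1 CPM in the aged library, while Lnx1 was at 10.04 against 20.97 CPM in the young and 7.18 against 21.6 CPM in the aged library. Pdlim4, an actin-associated LIM protein, was at 157 against 41.8 CPM in the young and 199.6 against 40.4 CPM in the aged library. Ociad2 was at 71.6 against 15.3 CPM in the young and 68.7 against 11.1 CPM in the aged library. Pdgfa, the ligand that oligodendrocyte precursors answer to, was at 56.5 against 28.7 CPM in the young and 79.03 against 34.05 CPM in the aged library, and Tgfb2 at 143 against 66.3 CPM in the young and 180.4 against 77.8 CPM in the aged library. Cdkn1a was also higher with Fbxo32, at 590.0 against 345 CPM in the young and 730.5 against 325 CPM in the aged library. Fbxo32-bearing cells were somewhat deeper, with median UMIs of 23486 against 20787 in the young and 23830 against 21503 in the aged library.

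The Lnx1 split had other genes apart, and Stmn4 near level across it. Unlike the Fbxo32-bearing cells, Lnx1-bearing cells were shallower than those without. Their median UMIs were 19640 against 21586.5 in the young and 19462 against 22227 in the aged library. With and without Lnx1 (102 and 108 cells with, 746 and 784 without), Lhfpl3 was at 129.6 against 48.96 CPM in the young and 193 against 62.2 CPM in the aged library, and B3gat2, a glucuronyltransferase of the HNK-1 epitope, at 86.4 against 23.1 CPM in the young and 91.5 against 28.7 CPM in the aged library. Cspg4 (NG2), a proteoglycan of oligodendrocyte precursors, was at 63.3 against 19.2 CPM in the young and 68.9 against 36.4 CPM in the aged library, and Sox6, a factor of the same lineage, at 181 against 84.6 CPM in the young and 164 against 77.7 CPM in the aged library. Pdlim4 with Lnx1 was at 11.3 against 58.6 CPM in the young and 14.8 against 60.1 CPM in the aged library, and Anxa3 at 11.3 against 169 CPM in the young and 12.02 against 70.8 CPM in the aged library. Slc4a4 was at 13.7 against 137 CPM in the young and 14.8 against 104 CPM in the aged library. Adamts9 was higher with Lnx1, at 54.5 against 25.9 CPM in the young and 52.2 against 25.01 CPM in the aged library, as was Tcp11l2, at 17.2 against 8.13 CPM in the young and 18.9 against 7.79 CPM in the aged library, whereas Mxd4 was nearly level, at 175 against 149 CPM in the young and 138 against 137 CPM in the aged library. Fbxo32 with Lnx1 was at 6.38 against 8.31 CPM in the young and 5.08 against 11.8 CPM in the aged library, a ratio of 0.767 (0.398 to 1.36) in the young library, whose interval takes in 1, and of 0.431 (0.212 to 0.787) in the aged. Stmn4 was nearly level across the Lnx1 split, at 11.3 against 10.4 CPM in the young and 14.3 against 16.1 CPM in the aged library. Tcp11l2 was also higher with Fbxo32, at 18.8 against 9.05 CPM in the young and 15.97 against 8.96 CPM in the aged library, while Adamts9 with Fbxo32 was at 32.6 against 31.1 CPM in the young and 31.9 against 28.9 CPM in the aged library. Of the score genes, Fbxo32 and Lnx1 were thus the pair that went apart, and Tcp11l2 was higher with either. Replication genes differed too among the 506, with Mcm2 at 50.7 against 23.9 CPM in the young and 55.9 against 27.3 CPM in the aged library with and without Lnx1, and Mcm6 at 24.3 against 52.3 CPM in the young and 21.9 against 51.5 CPM in the aged library with and without Fbxo32.

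Sesn3 and Btg2 differed across the Fbxo32 split more than across the Lnx1 split. Among the 506, Sesn3 was at 208 against 131 CPM in the young and 214 against 114 CPM in the aged library with and without Fbxo32, and at 143 against 138 CPM in the young and 114 against 144 CPM in the aged library with and without Lnx1. Btg2 was at 135 against 69.9 CPM in the young and 135 against 58.3 CPM in the aged library with and without Fbxo32, and at 70.4 against 69 CPM in the young and 60.7 against 77.5 CPM in the aged library with and without Lnx1. Among the 506, both genes were thus higher with Fbxo32 in each library, and near level or lower with Lnx1. They were not read over all 2100 cells within the limits. Since score genes are pushed apart among the 506, and only 23 and 29 cells had Fbxo32, this describes the chosen cells only.

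Between ages, 32 of 8398 genes were 2-fold or more higher in the aged than in the young Mxd4-high cells (0.381%) and 31 were at least 2-fold lower (0.369%). In all other cells the counts were 17 and 23 of 8342 (0.204% and 0.276%). With 1 library per age and far fewer UMIs in the group, the larger counts were not tested and smaller groups give wider scatter. All 10 named genes that were highest in the aged group and all 10 that were lowest had the same sign in the other cells. Wdfy1, an endosomal FYVE protein, was at 14.7 CPM in the young and 64.9 CPM in the aged library, 4.42-fold (95% interval 3.44 to 5.75), with a log2 ratio of 2.07 against 2.39 in the other cells. Rlbp1, a retinaldehyde-binding protein of glia, was at 69.8 CPM in the young and 10.3 CPM in the aged library, with log2 ratios of -2.65 and -2.14. A gene model that the file calls PISD had 2.10 and 2.00, but a near-identical gene of the same name can share its reads, so its counts are uncertain. Grk3, Mef2c, Hdac5, Gmpr and Kcnd2 also had log2 ratios above 1 in the other cells, and Anxa3, Chl1 and Fos had ratios below -1 there. Pla2g7, Kitl, Ier3, Egr1 and Sema6a completed the 10 lowest.

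Some genes were farther apart in the group than in the rest, as a description of these libraries. Tnfrsf12a, the TWEAK receptor, was at 90.6 CPM in the young and 173 CPM in the aged library, 1.91-fold (95% interval 1.70 to 2.14), while the other cells went from 88.1 to 109 CPM. Hbegf, an EGF receptor ligand, was at 46.1 CPM in the young and 123 CPM in the aged library, against 41.4 and 82.2 in the others. Among the 506 its aged level was 379.8 CPM with Fbxo32 and 74.4 CPM without. Tfrc, the transferrin receptor, was at 33.4 CPM in the young and 68.1 CPM in the aged library, and 57.8 and 85.7 in the others. Hes5, a NOTCH target of stem cells, was at 97.1 CPM in the young and 49.02 CPM in the aged library, with log2 ratios of -0.97 and -0.56. Of the score genes Stmn4 and Fbxo32 were higher in the aged group, with log2 ratios of 0.65 and 0.70 against 0.25 and 0.05 in the other cells. The other 5 were lower or level, and since the score is a sum over the 7, they are not free of each other.

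By gene list, immediate early genes were lower in 11 of 14 in the aged group, where 44.6% of all genes were, and 9 of them were at least 1.5-fold lower (2.38% of all genes), with a median of -0.91 against -0.32 over the 12 compared in the other cells. Fos was at 99.7 CPM in the young and 30.8 CPM in the aged library, 0.309-fold (95% interval 0.255 to 0.372), and Egr1 at 371 CPM in the young and 191 CPM in the aged library. Cholesterol synthesis genes were higher in 19 of 22, where 55.4% of all genes were, and 7 of them were at least 1.5-fold higher (2.49% of all genes), with medians of 0.48 in the group and 0.10 in the others. Hmgcs1, which makes the first committed precursor of the pathway, was at 472 CPM in the young and 757 CPM in the aged library, and Idi1 at 162 CPM in the young and 236 CPM in the aged library. In the other cells within the limits Hmgcs1 was at 501 and 687 CPM and Idi1 at 216 and 227. Ribosome biogenesis genes were higher in 23 of 28 in the group and in 8 of 28 in the others (53.2% of all genes were), with medians of 0.15 and -0.03, so the level in the group lay closer to that of the other cells in the aged library. The p53 targets were lower in 15 of 17 with a median of -0.25, and the others had -0.22, a similar value. The axon and synapse list had 0.11 in the group and 0.17 in the others. Over all genes the aged-over-young median was 0.03 in the group and 0.01 in the others. Differences between the groups' age ratios were not tested.

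**Figure D5:**
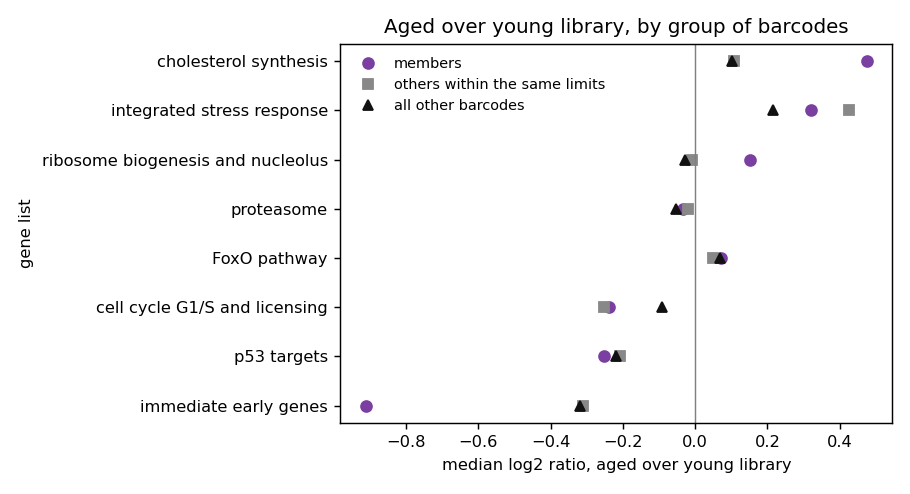
Median log2 ratio of the aged over the young library for 8 gene lists (x axis), in Mxd4-high cells (purple circles), other cells within the same limits (grey squares) and all other cells (black triangles). Immediate early genes (-0.91 against -0.32) and cholesterol synthesis (0.48 against 0.10) lie away from both other groups, and the p53 targets lie close to them.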

How the data were processed

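The deposited files give, for 1 library per age, a count of UMIs for each gene in each barcode, unnormalized, which the authors made with Cell Ranger 3.0.2 on mm10, per the submitters' processing notes. Of 5151 young and 4731 aged barcodes, 3766 and 3664 had at least 5000 UMIs and at most 20% mitochondrial UMIs, with 94530679 and 99206061 UMIs in all. Members and gene lists were chosen with earlier results of these data known. UMIs were summed per group and library. Genes at 10 CPM or more in either group were compared as the log2 ratio of CPM + 1, and a gene was counted when at least 2-fold apart in both libraries. Intervals are exact (95%), cover counting error only, and there was no test. Named genes were the 15 highest and 15 lowest by the smaller of the libraries' ratios at 50 CPM or more, 10 each way for age, and up to 4 per list. They left out score genes, Mki67, Apoe, mitochondrial and ribosomal protein genes, pseudogenes and unnamed models. Further list genes were chosen after their values were seen. Symbols were matched by identifier (27645 of 27998). Positions are from GENCODE M21 and promoters from RefSeq. Scrublet (scanpy 1.11.5) called 3 young and 6 aged barcodes (0.0797% and 0.164%), too few to have worked, so doublets were not removed. The ratios were tested on simulated data (numpy 2.4.6, scipy 1.17.1, pandas 2.3.3).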

Additional observations from a re-analysis of the deposited data

Results flagged for a closer look

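A few named genes stood on opposite sides of the comparison cells in the libraries, and none of these differences was tested. Against all other cells, Map1a, a microtubule-associated protein, had log2 ratios of -0.27 (young) and 0.22 (aged), and Msmo1, an enzyme of cholesterol synthesis, had -0.26 and 0.14. Within the Mki67 and Apoe limits, Sox11, a factor of immature neurons, had -0.11 and 0.08, and Sema6a, a guidance protein, had 0.23 and -0.21. Between the ages, Nkd1, an inhibitor of WNT signalling, was lower in the aged Mxd4-high cells at a log2 ratio of -0.48 and higher in the aged other cells at 0.12. Gadd45g, a growth arrest gene, was higher in the aged Mxd4-high cells at 0.47 and near level in the others at -0.07.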

How the results depend on the processing

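The counts below are of genes at least 2-fold higher and lower against all other cells (57 and 330), higher and lower within the limits (43 and 19), and higher and lower in the aged group (32 and 31). The top 6% by score made up 4.43% of the young and 3.14% of the aged cells, with 134 higher, 101 and 63 within the limits, and 72 and 67 by age. Applying the limits first gave 252 cells, all among the 506, 3.98% and 2.78% of each library, with 144 higher, 104 and 64 within the limits, and 107 and 86 by age. The top 20% took 10.75% and 10.02%, with 31 higher against all other cells, and 32 higher and 11 lower within the limits. Thinning to 5000 UMIs gave 7.26% in the aged library, 19 and 208, and 18 and 38 within the limits. A mitochondrial limit of 10% kept 225 of the 506 cells among 310, with shares of 6.72% and 6.82%, 26 higher within the limits and 56 lower by age. A minimum of 50 CPM gave 13 and 144, 10 and 5 within the limits, and 9 and 5 by age; no minimum gave 30 lower within the limits and 151 and 154 by age. A pseudocount of 10 CPM gave 11 and 212, 9 and 1 within the limits, and 8 and 10 by age, and the mean of per-cell CPM gave 29 lower within the limits. In alternatives chosen after seeing the data, leaving Mxd4 out of the score gave 5.89% of the young and 6.00% of the aged cells, 87 higher against all others, and 62 lower within the limits. Without Adamts9, 43 were lower within the limits, and without Lnx1, 29 were lower there and 53 lower by age. Fewer cells or genes entered under the stricter settings; otherwise the cause was not tested. The other counts and shares stayed within 1.5 times or within their interval, the 6 held-out genes included. No paired analysis was possible because each age has 1 library.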
